A study of Mus musculus with 12 samples.

Results

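The 30 probes described here were at least 2-fold brighter on the array of mouse urinary bladder taken 1 h after LPS than on the array taken 1 h after saline, out of 1185 probes on the array. They were chosen by the LPS 1 h and saline 1 h values themselves, so the difference between those arrays describes the members and is no finding. The counts and tests that bear on the members come from the other 10 arrays, and further values of LPS 1 h and saline 1 h are given as a description only. The deposited table names probes by code and no gene name was matched to a code here, so members are called by code, a few for each comparison, and no pathway or cell type marker could be counted.

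LPS, a lipopolysaccharide that Gram-negative bacteria carry on their surface, is sensed by Toll-like receptor complexes on epithelial cells, macrophages and mast cells. The signal activates NF-kB and AP-1, and the early wave of induced transcripts, which includes transcription factors, cytokines, chemokines and feedback inhibitors, is typically short-lived. In the bladder this response is known for its part in the defence against urinary tract infection. Substance P, a neuropeptide released by sensory nerves, acts on the neurokinin receptor and causes neurogenic inflammation, whereas an antigen given to a sensitized animal acts through mast cells armed with antibody.

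Total RNA of whole bladder from c57bl6 mice was hybridised to 12 cDNA arrays, with 1 array per treatment and time (4 treatments at 1, 4 and 24 h). The saline, substance P (1 µM) and LPS (100 mg/ml as labelled) mice were female. The ovalbumin mice, whose sex is not given, had been sensitized with DNP-HSA and received DNP-OVA into the bladder. For the other mice the labels mention neither a sensitization nor a route, and the number of mice behind an array is not given. A lot number is given for 6 arrays, lot 1 for the 3 ovalbumin arrays and lot 2 for substance P 24 h and the saline arrays of 1 h and 4 h, so ovalbumin, sensitization and lot cannot be told apart.

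Values are normalized intensities on the log2 scale, after quantile normalization of the 12 arrays and a floor at the 10th percentile of all values (47684 intensity units, 15.54 on the log2 scale). The median over all probes was 15.85 on every array. Ranks from the brightest probe, which scaling by a common factor per array cannot alter, are given beside them. Before normalization the arrays differed in range: the 90th percentile of the intensities was 1.32 to 3.52 times the 10th. Whole tissue was measured, so a change in the number of cells of a type and a change in RNA per cell cannot be told apart.

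The 2-fold threshold cut through a continuous range. Of the 30 members, 23 had a log2 ratio of LPS 1 h over saline 1 h from 1 to under 1.5, 2 from 1.5 to under 2, and 5 of 2 or more, with a median of 1.28. The 5 members just inside the threshold had ratios of 1.01 to 1.07, and the 5 probes just outside it 0.94 to 0.98. The highest were M781 (11.9-fold) and V164 (6.78-fold). On saline 1 h 2 members were at the floor, so their ratios are lower bounds. Over all probes, 2.58% of 1163 were at least 2-fold higher in this contrast, a share that the rule fixes. Median scaling in place of quantile normalization gave 35 probes and included all 30 members. The deposited values without scaling gave 5, all of them members, and a background correction gave 201, which held all 30.

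**Figure D1:**
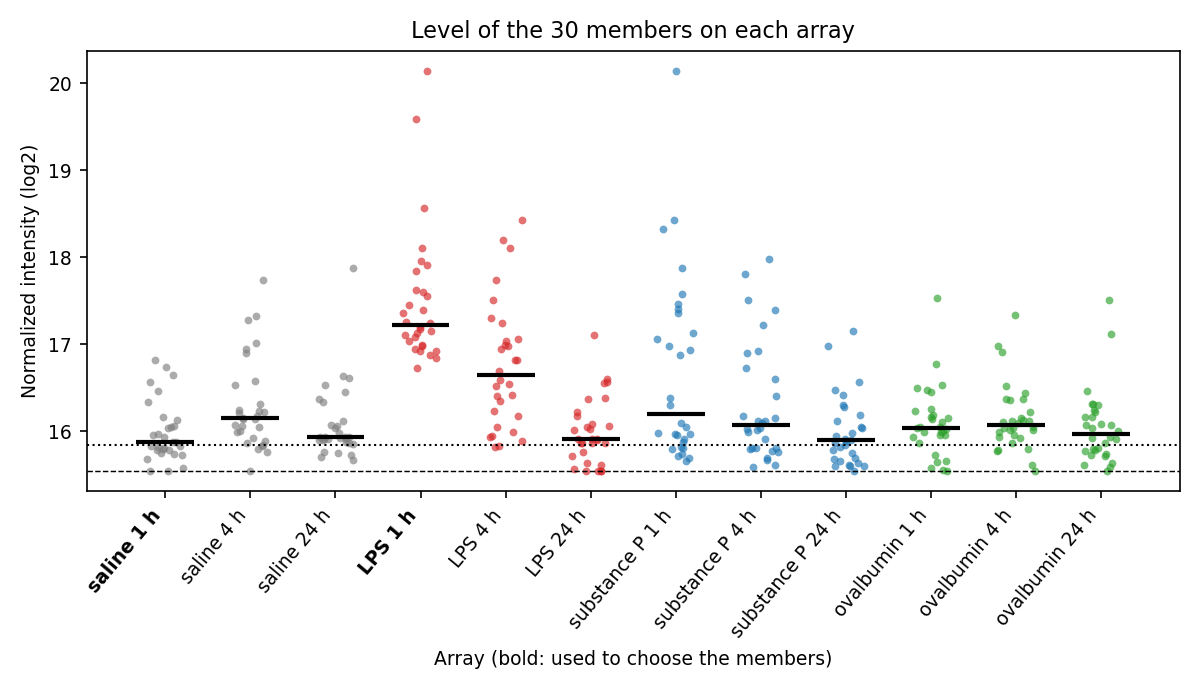
Normalized intensity (log2, vertical axis) of the 30 members on each of the 12 arrays (horizontal axis), one point per member, with the member median as a bar, the median of all probes (15.85) as a dotted line and the floor (15.54) as a dashed line. The member median is 17.22 on LPS 1 h, which chose the members, 16.64 on LPS 4 h and 16.20 on substance P 1 h, and between 15.87 and 16.15 on the other arrays.

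The other saline arrays show how far the choice leaned on the saline 1 h array. The member median was 15.87 on saline 1 h, 16.15 on saline 4 h and 15.93 on saline 24 h, and 17 of 30 members were lowest on saline 1 h among these arrays. Set against saline 4 h, 20 of 30 members were at least 2-fold higher on LPS 1 h (1.81% of all probes), and against saline 24 h 21 were (2.95%). LPS 1 h and saline 1 h chose the members, and a low value on saline 1 h favoured a probe. All these counts, that of 17 included, therefore describe the choice and nothing is read from them. The members that depended most on saline 1 h were M493 and M161, only 1.06-fold and 1.07-fold above saline 4 h, and M837, 1.17-fold above saline 24 h.

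M161 read 16.65, 17.74 and 16.53 on saline 1, 4 and 24 h, and M493 read 16.06, 17.28 and 16.37. Both were thus highest on the 4 h control. The control arrays differed among themselves at these probes: 2 of 30 members, M161 (2.31-fold) and M99 (2.12-fold), were at least 2-fold higher on saline 4 h than on saline 24 h, beside 1.63% of all probes. This spread between controls is the scale on which the ratios below have to be read.

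At 4 h after LPS the members stood high in the order of probes, and at 24 h they did not. On the LPS 4 h array 14 of 30 members were among the brightest 118 probes, compared with 6 on saline 4 h and 1 on LPS 24 h. The median member was at the 88.9th percentile of intensity on LPS 4 h, the 74.3rd on saline 4 h, the 56.5th on LPS 24 h and the 58.7th on saline 24 h. Against saline 4 h, 22 of 30 members ranked brighter on LPS 4 h, beside 51.1% of all probes.

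In normalized levels, LPS 4 h exceeded saline 4 h by a median log2 ratio of 0.40 over the members (range -0.42 to 1.71) and 0.01 over all probes. At least 2-fold higher were 5 of 30 members, against 0.869% of all probes, and 0 were 2-fold lower, against 1.39% of all probes. These 5 were among only 10 such probes on the array. The sign of the median turned to -0.14 under median scaling, where 0 members and also 0 of all probes were 2-fold higher. Without scaling it was -0.25 beside -0.11 for all probes, and again 0 members and 0 of all probes were 2-fold higher. The LPS 4 h array had a narrow range before normalization, its 90th percentile being 1.36 times its 10th compared with 2.51 times on saline 4 h. With saline 24 h as the reference, whose range was 1.43 times, 8 of 30 members were 2-fold higher (2.82% of all probes) and the median was 0.48.

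The members with the highest ratio of LPS 4 h to saline 4 h were M513 and M781. M513 read 16.84, 17.25 and 15.86 on LPS 1, 4 and 24 h and 15.68, 15.54 and 15.70 on saline. On the substance P arrays it read 15.66, 15.59 and 15.60, and on the ovalbumin arrays 15.56, 15.78 and 15.64. Apart from LPS 1 h, which chose the members, LPS 4 h was the only array on which M513 stood well above the floor. M513 ranked 99 and 62 on LPS 1 h and 4 h, its rank elsewhere running from 572 to 1155. Its log2 ratio of LPS 4 h over saline 4 h was 1.71 (3.27-fold, a lower bound since saline 4 h was at the floor), 0.79 under median scaling and 0.87 without scaling.

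Unlike M513, M781 reversed under scaling, as several other members did. It read 20.14, 18.43 and 16.09 on LPS 1, 4 and 24 h and 16.57, 16.90 and 15.90 on saline, and ranked 4, 20 and 351 after LPS and 149, 92 and 527 after saline. The log2 ratio at 4 h was 1.53 (2.89-fold) and reversed to -0.18 under median scaling and -0.30 without scaling. As a multiple of the array median, M781 was at 1.96 on LPS 4 h and 2.22 on saline 4 h. Its place in the order was higher after LPS while its multiple of the array median was not. Under median scaling M339 (1.16), M493 (0.92), M837 (0.79) and V164 (0.52) also fell below 0, to -0.16, -0.68, -0.79 and -0.38. M513 and V367 stayed above 0, at 0.79 and 0.52.

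V367 had a course like that of M513. It read 17.13, 17.31 and 15.54 on LPS 1, 4 and 24 h, 15.79, 15.84 and 15.91 on saline, and 15.81, 15.70 and 15.66 on substance P. On ovalbumin it read 16.04, 16.05 and 15.79. Apart from LPS 1 h, which chose the members (rank 71), LPS 4 h stood out with a rank of 58. On LPS 24 h the probe was at the floor. M513 and V367 were the members highest on LPS 4 h over substance P 4 h, by 3.15-fold and 3.05-fold. In that comparison, which uses no saline array, 5 of 30 members were at least 2-fold higher (1.14% of all probes), and 24 of 30 ranked brighter, as did 52.7% of all probes. Against ovalbumin 4 h, 7 of 30 were 2-fold higher with LPS (1.74% of all probes), led by M781 (5.04-fold) and M339 (3.05-fold).

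The lowest members at 4 h were V388 and V237, 1.34-fold and 1.26-fold below saline 4 h. V388 read 16.88, 15.82 and 15.54 on LPS 1, 4 and 24 h and 15.88, 16.25 and 15.91 on saline, so that only LPS 1 h was high. At 24 h, 0 of 30 members were 2-fold above saline 24 h (1.38% of all probes) and the median was -0.06 over the members and 0.00 over all probes. The highest was M339, 1.38-fold above, and the lowest M837, 1.72-fold below. Within LPS, 29 of 30 members were brighter at 4 h than at 24 h, where 49.7% of all probes were, and 10 of them at least 2-fold (2.16% of all probes).

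**Figure D2:**
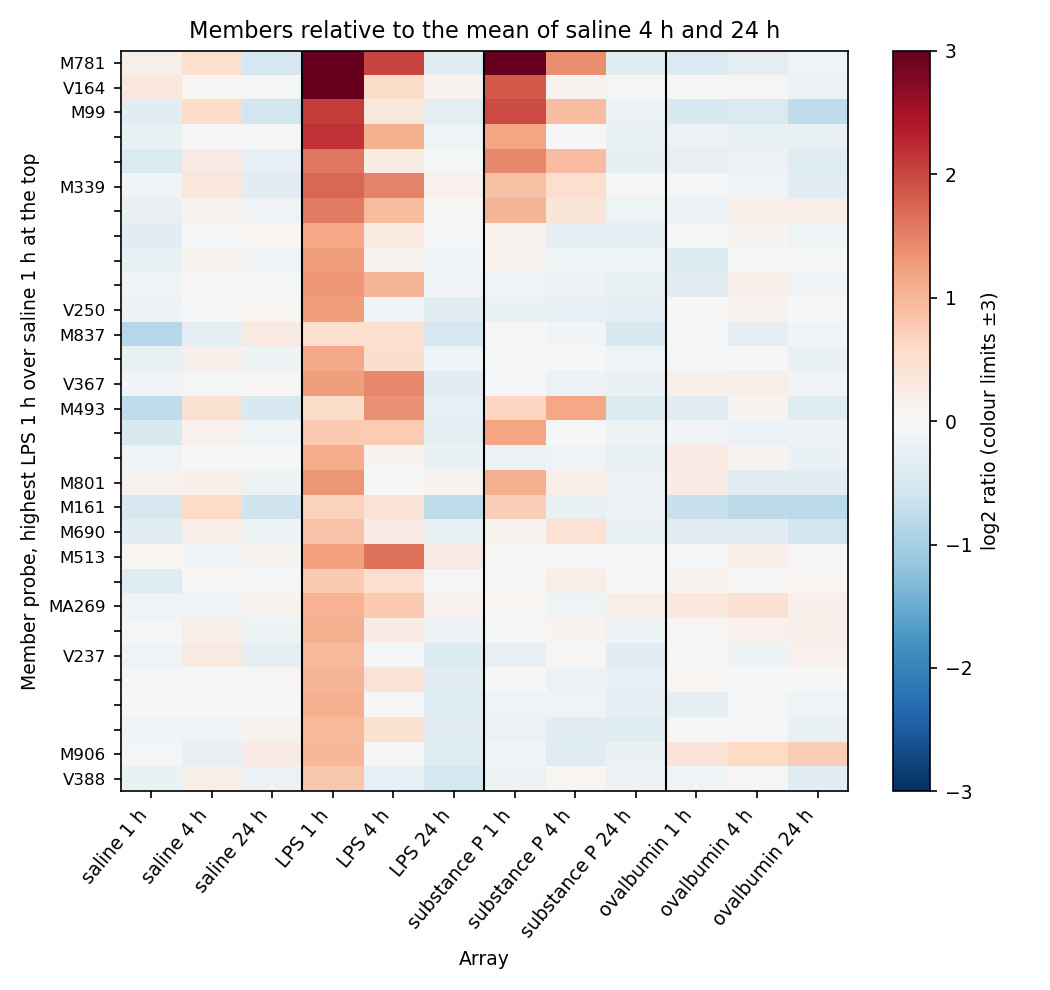
Log2 ratio of each of the 30 members (rows, highest LPS 1 h over saline 1 h at the top) to its own mean on saline 4 h and 24 h, for the 12 arrays (columns, in blocks by treatment), with colour limits of ±3 that M781, V164 or both exceed on LPS 1 h and substance P 1 h. M781, V164 and M99 are red on LPS 1 h and on substance P 1 h, M513 and V367 are red on LPS 1 h and 4 h, and the LPS 24 h, substance P 24 h and ovalbumin columns are mostly pale.

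On substance P 1 h a subset of the same probes read high. Saline 1 h took part in choosing the members, so the reference is the mean of saline 4 h and 24 h, and no array is shared with the choice. At least 2-fold higher on substance P 1 h were 8 of 30 members (26.7%), against 0.938% of all probes, and these 8 made up 72.7% of the 11 probes that were 2-fold higher on that array. The median log2 ratio over the members was 0.05 and over all probes -0.02. Outside the 8, M339 (1.84-fold), M161 (1.68-fold) and M493 (1.56-fold) came next, and the remaining members lay between -0.25 and 0.10. With saline 4 h alone as the reference 6 members were 2-fold higher, out of 6 probes in all (0.527%). With saline 24 h alone 11 were, out of 30 (2.59%). Median scaling gave 12, out of 57 probes in all. Before normalization this array had the widest range of the 12, its 90th percentile being 3.52 times its 10th.

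M781 was at 20.14 on substance P 1 h, 17.81 at 4 h and 16.05 at 24 h, ranking 4, 37 and 376. The log2 ratio at 1 h was 3.74 (13.4-fold), and 4.26 under median scaling. Its rank of 4 on both LPS 1 h and substance P 1 h gives the same normalized value on both arrays, and it stood at 15.5 and 28.8 times the array median there. On the ovalbumin arrays it read 16.00, 16.10 and 16.31.

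M99 was next, at 18.43, 17.39 and 16.30 on substance P 1, 4 and 24 h, compared with 18.56, 16.82 and 16.17 on LPS. On saline it read 16.13, 17.02 and 15.94, and on ovalbumin 16.02, 16.04 and 15.73. The log2 ratio at 1 h was 1.96 (3.88-fold), and 2.75 under median scaling. Substance P 1 h lay above every saline and ovalbumin array for M99, whereas at 4 h the log2 ratios to saline 4 h were -0.19 for LPS and 0.38 for substance P.

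V164 read 18.33, 16.61 and 16.47 on substance P, 19.59, 17.06 and 16.60 on LPS, 16.82, 16.54 and 16.45 on saline, and 16.54, 16.53 and 16.31 on ovalbumin. It was the member that stood furthest above its 4 h value on substance P apart from M781: substance P 1 h exceeded substance P 4 h 3.29-fold for V164 and 5.06-fold for M781. Within substance P, 5 of 30 members were at least 2-fold higher at 1 h than at 4 h, out of 5 such probes in all (0.448%). The lowest members on substance P 1 h were V237 and V250, 1.19-fold and 1.14-fold below the saline mean.

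Members high with substance P at 1 h and members high with LPS at 4 h overlapped in part. With no saline array in common, 5 members were 2-fold higher on LPS 4 h than on saline 4 h and 11 on substance P 1 h than on saline 24 h. They shared 3 members, 60% of the first list and 27.3% of the second, and 17 of 30 members were in neither. Over all 1185 probes the lists held 10 and 30 and shared 4. The shared members were M781, M295 and M339, and 36.7% of all members were in the second list. Across the 30 members Pearson's r between these ratios was 0.17 and Spearman's rho -0.05, and without the 2 members farthest from the median LPS 4 h ratio r was -0.03. Over all probes r was -0.14. These are descriptions across probes of single arrays normalized together. Outside the arrays that chose them, 14 of 30 members had their highest level on LPS 4 h and 10 on substance P 1 h, where 17.9% and 7.26% of all probes did.

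**Figure D3:**
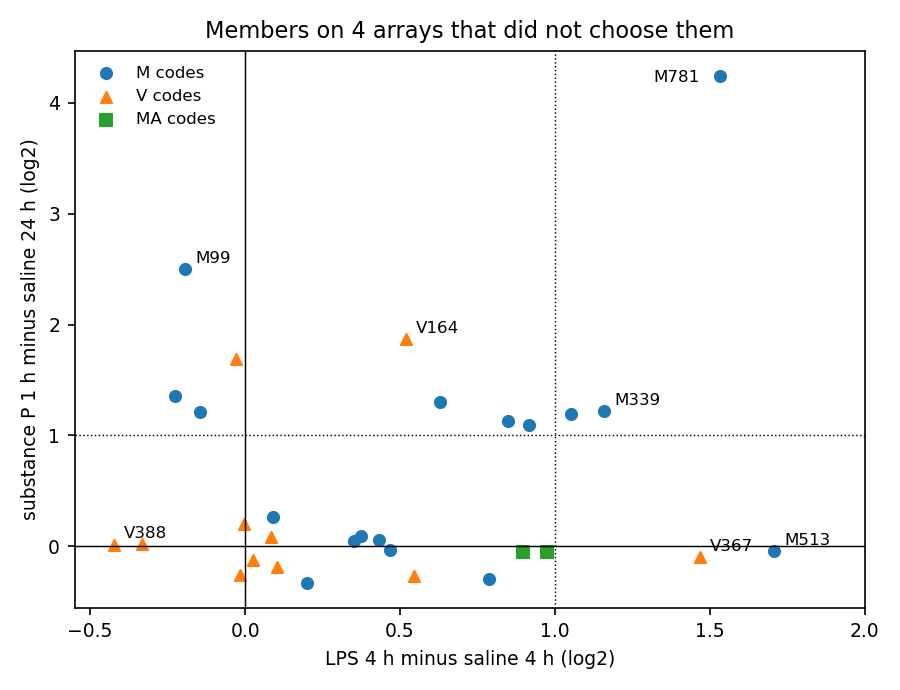
Log2 ratio of substance P 1 h to saline 24 h (vertical axis) against that of LPS 4 h to saline 4 h (horizontal axis), one point per member, with the marker giving the code series and dotted lines at 1. M781, M295 and M339 lie beyond both dotted lines, M99 and V164 are high on the vertical axis alone, and M513 and V367 on the horizontal axis alone (Pearson 0.17).

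At 4 h and 24 h the substance P arrays held no member 2-fold above saline at the same time (0.268% and 1.55% of all probes). At 4 h the highest were M781 (1.87-fold above) and M493 (1.63-fold), and the lowest M161 (1.76-fold below). M493 reached 17.98 on substance P 4 h and 18.20 on LPS 4 h, its highest levels on any array. With saline 24 h as the reference 4 members were 2-fold higher at 4 h. At 24 h the ratios ran from -0.73 (M837) to 0.45 (M161).

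The ovalbumin arrays held none of these high readings. Their ranges were narrow before normalization, the 90th percentile being 1.42, 1.59 and 1.32 times the 10th at 1, 4 and 24 h. Their median intensities were 39336, 33022 and 35726, compared with 78536, 67338 and 53297 on saline. The deposited ovalbumin 1 h values hold decimals where the other arrays hold whole numbers, and the labels give no reason. No member was 2-fold above saline at 1, 4 or 24 h (0%, 1.49% and 0.688% of all probes). The member medians were -0.06, -0.04 and -0.07. The highest member at all 3 times was M906, a probe near the threshold of the choice, 1.30-fold, 1.78-fold and 1.40-fold above saline. It read 16.77, 16.98 and 17.12 on ovalbumin and 16.34, 16.15 and 16.64 on saline, compared with 17.39, 16.35 and 16.02 on LPS and 16.31, 16.03 and 16.19 on substance P. The lowest was M161 at 1 h and 4 h, 1.59-fold and 2.61-fold below saline, the latter being the only member 2-fold lower (1.31% of all probes).

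Substance P and ovalbumin can be compared at 1 h without any saline array, a comparison added after the values were seen. At least 2-fold higher on substance P 1 h were 8 of 30 members (2.08% of all probes), led by M781 (17.7-fold) and M99 (5.32-fold). At least 2-fold lower were 0 members (1.21% of all probes). The lowest were M906 and V146, 1.38-fold and 1.34-fold below ovalbumin. These arrays differed in range before normalization, the 90th percentile being 3.52 times the 10th on substance P 1 h and 1.42 times on ovalbumin 1 h.

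**Figure D4:**
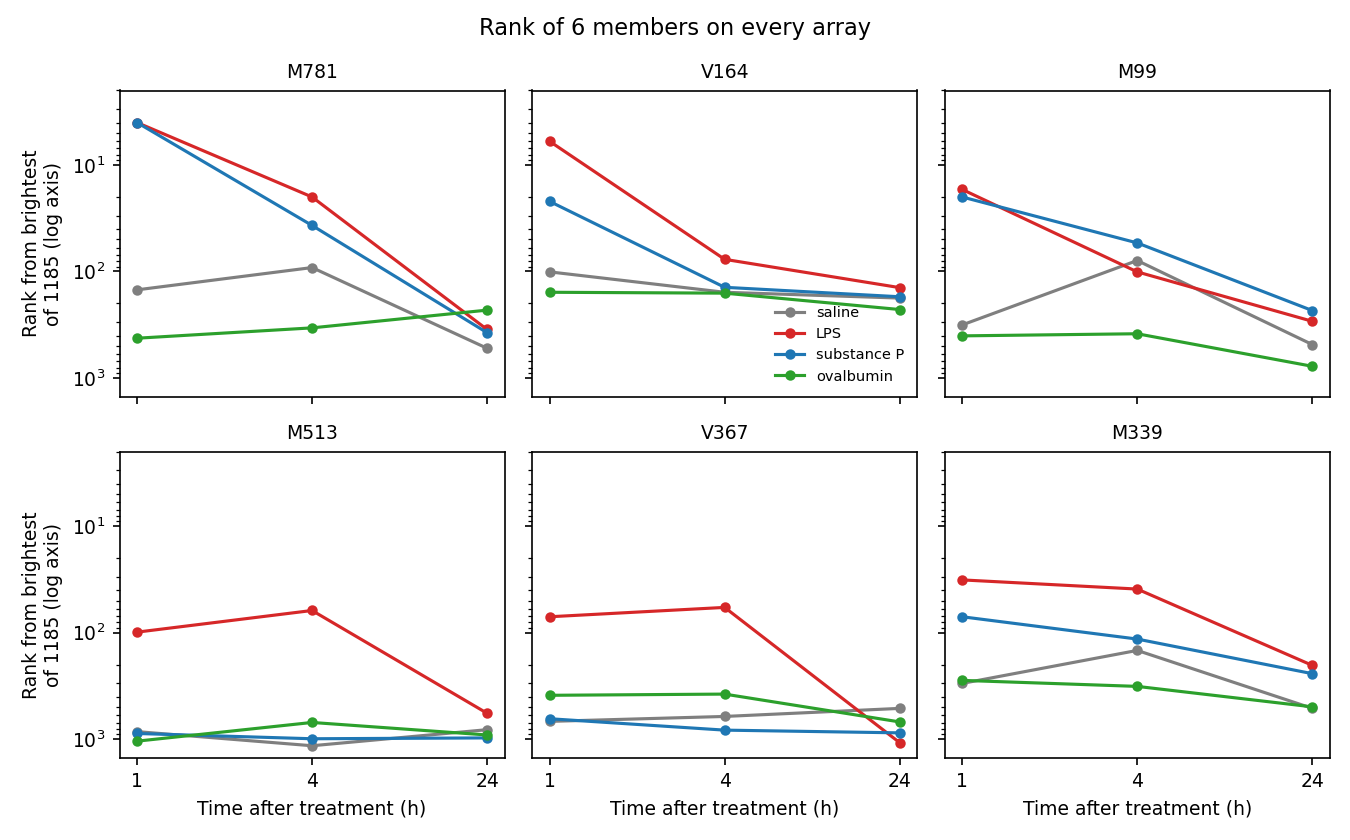
Rank from the brightest of 1185 probes (log axis, brightest at the top) at 1, 4 and 24 h for 6 members, one line per treatment, each point 1 array. M781 ranks 4 at 1 h after both LPS and substance P, while M513 and V367 rank from 58 to 99 on LPS 1 h and 4 h and from 378 to 1155 on every other array.

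The members were then tested in a limma model with treatment and time as additive factors, fitted to all 10 arrays that did not choose them and to the 1177 probes that exceeded the floor on 3 or more of these. All 30 members passed this filter. LPS and saline here mean 4 h and 24 h only, and a response present at 1 time counts as error. The 1 h term comes from substance P 1 h and ovalbumin 1 h alone. A high substance P 1 h value therefore raises the substance P differences from saline and LPS and lowers those of ovalbumin. Nothing says that the arrays came from separate animals, so a p-value here reflects only how far these arrays spread, which may be technical. In limma, 0 of 30 members and 0% of all probes passed an adjusted p of 0.05 in any of the 7 contrasts, and the median half-width of a 95% interval over all probes was 0.27 to 0.33 on the log2 scale.

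For LPS against saline, 3 of 30 members had an unadjusted limma p under 0.05, 2 higher and 1 lower, compared with 7.31% of all probes. A difference above 0 was seen in 23 of 30 members and 49.9% of all probes, with a member median of 0.07. That median was -0.08 under median scaling, -0.52 without scaling (-0.43 over all probes), -0.05 without LPS 4 h and 0.42 without LPS 24 h. The lowest p belonged to V388, lower by -0.39 ± 0.09 (SE; 2 arrays against 2, limma adjusted p = 0.624), and M339, higher by 0.81 ± 0.27 (limma adjusted p = 0.643). M339 read 17.96, 17.74 and 16.38 on LPS and 16.16, 16.58 and 15.91 on saline, so in these levels it was higher at both times tested. Under median scaling its log2 ratio at 4 h was -0.16. Over the other settings its limma adjusted p ran from 0.112 to 0.958 and its difference from -0.51 (without scaling) to 1.46. Without LPS 24 h, 1 LPS array is left, that of 4 h, on which M513 and V367 had already been named as high, and the model takes its spread from the other treatments. M513 (1.63 ± 0.15, limma adjusted p = 0.0267) and V367 (1.39 ± 0.14, limma adjusted p = 0.0267) passed, 2 of 7 probes that did, and 10 members had an unadjusted p under 0.05 (15.8% of all probes). With all 10 arrays M513 was at 0.93 ± 0.35 (limma adjusted p = 0.643) and V367 at 0.55 ± 0.42 (limma adjusted p = 0.74). Over the other settings their limma adjusted p ran up to 0.828 and 0.933, and V367 was at -0.30 without LPS 4 h.

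For substance P against saline 0 of 30 members had an unadjusted limma p under 0.05 (2.21% of all probes). Without substance P 24 h 2 had (1.53%), and under median scaling 4 had (12.5%). The member median was -0.02, and -0.07 on the 8 arrays of 4 h and 24 h. For ovalbumin against saline 4 members had an unadjusted limma p under 0.05, 1 higher and 3 lower (5.52% of all probes). Below 0 lay 22 of 30 members and 49.4% of all probes. On the 8 arrays of 4 h and 24 h the count was 3 (3.41%), and the member median was -0.08 in place of -0.12. In the fit of 10 arrays M781 was at -0.77 ± 0.91, while its ratios at 4 h and 24 h were -0.80 and 0.40. The lowest p belonged to M690, at -0.43 ± 0.12 (limma adjusted p = 0.815), and M906, at 0.58 ± 0.20 (limma adjusted p = 0.835). The count of 4 was 0 without ovalbumin 4 h (3.24% of all probes) and 6 without ovalbumin 24 h (6.73%). The member median was -0.27 without saline 4 h and -0.04 without saline 24 h, each leaving 1 saline array. M690 read 16.45, 16.45 and 16.22 on ovalbumin, compared with 16.46, 16.94 and 16.62 on saline and 16.88, 17.22 and 16.57 on substance P.

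The differences between stimuli do not use the saline level, but the saline arrays enter the spread behind their p-values. For substance P against ovalbumin 10 of 30 members had an unadjusted limma p under 0.05, 8 higher and 2 lower with substance P, beside 18.2% of all probes. M690 differed by 0.52 ± 0.10 and M99 by 1.45 ± 0.31 (3 arrays against 3, limma adjusted p = 0.122 for both), each higher with substance P at 3 of 3 times. The count of 10 was 4 without substance P 1 h or ovalbumin 1 h (8.33% and 8.34% of all probes). It was 6 without substance P 4 h or ovalbumin 4 h (14.4% and 11.4%). Over the other settings the limma adjusted p of both ran up to 0.552, and it was lowest for the values without scaling, where 30 of 30 members and 1184 probes passed. Under median scaling 4 members passed, beside 77 of all probes, with 15 members and 51.4% of all probes under an unadjusted p of 0.05, and with a trended and robust variance 2 did, beside 28.

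For ovalbumin against LPS 7 of 30 members had an unadjusted limma p under 0.05, 5 lower and 2 higher with ovalbumin (13.8% of all probes). M339 was lower by -1.11 ± 0.26 (limma adjusted p = 0.152) and M906 higher by 0.79 ± 0.20 (limma adjusted p = 0.163). For substance P against LPS 2 members had (5.52%), V388 at 0.32 ± 0.09 (limma adjusted p = 0.801) and M513 at -0.92 ± 0.34 (limma adjusted p = 0.87). Without LPS 24 h, again with 1 LPS array, M513 and V367 were at -1.58 and -1.35 for ovalbumin against LPS. For substance P against LPS they were at -1.62 and -1.59 there. Under median scaling the counts of 7 and 2 were 1 and 9 (3.21% and 36.8% of all probes). On the 8 arrays of 4 h and 24 h the counts stayed at 7 and 2 (10.3% and 3.07%). The member medians there were -0.30 and -0.22, in place of -0.37 and -0.12. The count of 7 was 3 without ovalbumin 4 h (8.35%) and 12 without ovalbumin 24 h (13.0%). The count of 2 was 1 without substance P 4 h or 24 h (3.40% and 5.11%), or without ovalbumin 4 h or 24 h (3.84% and 5.20%).

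The 1 h term of the model rests on substance P and ovalbumin, the treatments whose 1 h array did not choose the members. At 1 h against the mean of 4 h and 24 h, 21 of 30 members were above 0, with 48.9% of all probes, and the median was 0.13, with 0.00 over all probes. An unadjusted limma p under 0.05 was reached by 3 of 30 members, all higher at 1 h, compared with 1.78% of all probes. The count of 3 was 7 without ovalbumin 24 h (2.21% of all probes) and 1 without substance P 4 h or 24 h (1.19% and 1.28%). The median was 0.21 without ovalbumin 1 h and 0.03 without substance P 1 h, each leaving 1 array of 1 h in the fit. M801 was higher at 1 h by 0.79 ± 0.15 and V164 by 0.95 ± 0.34 (limma adjusted p = 0.998 for both, 0.0819 to 1 and 0.00164 to 1 over the other settings). M801 read 16.98, 16.12 and 15.78 on substance P and 16.14, 15.61 and 15.59 on ovalbumin, highest at 1 h in both, and 17.25, 15.93 and 16.02 on LPS.

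The members are also described by the code series of their probes, which the rule did not use. Of the 30 members 17 carried M codes (56.7%, where M codes made up 50.4% of the array), 11 V codes (36.7%, 29.6% of the array) and 2 MA codes (6.67%, 20% of the array). On LPS 4 h over saline 4 h the median ratio was 0.47 for the M members (range -0.23 to 1.71), 0.02 for the V members (-0.42 to 1.47) and 0.94 for the 2 MA members. All M probes on the array had a median of 0.04, all V probes -0.04 and all MA probes 0.05. On substance P 1 h the median was 0.64 for the M members and -0.11 for the V members, where all M probes had -0.02 and all V probes -0.01. At least 2-fold higher were 6 of 17 M members and 2 of 11 V members, beside 0.938% of all probes. The 2 V members were V164 and V005, with log2 ratios of 1.83 and 1.44. The share of all probes within each series was not counted. What the code series stand for, such as an area of the array, is not given in the sources used here, and its part in these values was not tested.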

How the data were processed

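The deposited table holds intensities, on a linear scale, for 1185 probes on 12 cDNA arrays, and the sample titles gave each array's treatment and time. The sources used here do not give the scanner, image software, background step or array type. Members and tests were chosen with earlier results of these data known. In R 4.3.3 with limma 3.58.1, all 12 arrays were quantile-normalized, raised to a floor of 47684, which is their 10th percentile, and converted to log2. Members were probes with LPS 1 h minus saline 1 h of 1 or more. Where 1 array is set against another there is no replicate and no p-value, and counts cover probes above the floor on at least 1 array compared. limma (residual degrees of freedom 4, prior 2.43) was fitted to 10 arrays with treatment and time as factors, with Benjamini-Hochberg adjustment over 1177 probes, and was tested on simulated data. The number of arrays limits the precision. Background left in the intensities shrinks ratios of dim probes. Named members were, for each comparison, the 2 highest and 2 lowest, or the 2 with the lowest p in the fit, with a few more values chosen after they were seen. No code matched a symbol or accession of the reference gene table, so planned gene lists were not used. Alternatives were other scalings, floors, filters, a normexp correction, other saline references, other models and leaving out each array.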

Additional observations from a re-analysis of the deposited data

How the results depend on the processing

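Leaving out the scaling changed most counts and median scaling changed fewer, and the cause was not tested beyond the change of setting itself. The number of probes meeting the rule was 5 on the deposited values without scaling and 201 after normexp correction. Members 2-fold higher on LPS 4 h than saline 4 h (5) became 0 with median scaling or no scaling, where 0 of all probes were. They became 13 after normexp (214 of all probes) and 8 against saline 24 h (33). M781 there reversed to -0.18 with median scaling and -0.30 without scaling, M339 to -0.16 and -0.27, and some other members reversed too. On LPS 24 h normexp gave 1 (219 probes). On substance P 1 h (8) no scaling gave 14 (221). On substance P 4 h (0) median scaling gave 3 (15), no scaling 6 (75), normexp 2 (71), saline 24 h as reference 4 (17) and the saline mean 2 (6). On substance P 24 h (0) no scaling gave 6 and normexp 1 (208 each). On ovalbumin 4 h and 24 h (0) normexp gave 3 and 2 (172 and 179).

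In the limma contrasts (0 members each), no scaling gave 2 for LPS (66 of all probes), 11 for substance P (216) and 27 for ovalbumin (930) against saline, 27 for substance P against LPS (933), 1 for ovalbumin against LPS (6), 30 for substance P against ovalbumin (1184) and 5 for 1 h against later (5). Without scaling, whole-array brightness enters these differences. Median scaling gave 4 and a trended robust variance 2 for substance P against ovalbumin, and all 12 arrays, which include those that chose the members, 1 for ovalbumin against LPS (34). Leaving out each array gave 0 to 2 members for LPS against saline, substance P against LPS and ovalbumin against LPS, the 2 arising without LPS 24 h. Without scaling the limma differences reversed for M339 (-0.51, LPS), V250 and V146 (0.21 and 0.29, substance P), M906 (-0.60, ovalbumin) and M513 (0.34, substance P against LPS). V367 did too (-0.18, LPS, and 0.48, substance P against LPS). With all 12 arrays V388 reversed to 0.073 (LPS) and -0.10 (substance P against LPS). Floors at the 5th and 25th percentiles and other filters left the counts of members past an adjusted p or 2-fold within 1.5 times. The count with an unadjusted limma p under 0.05 was 2 in place of 4 for ovalbumin against saline with the 25th-percentile floor (6.02% of all probes). Without the time term it was 1 (4.42%). That model also gave 4 in place of 7 for ovalbumin against LPS (14.8%) and 5 in place of 10 for substance P against ovalbumin (18.4%).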
